A study of Mus musculus with 4 samples.

Results

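The transcription factors that drive formation of the ovarian follicle were followed in E18.5 fetal oocytes, as the 7 genes Figla, Sohlh1, Sohlh2, Nobox, Lhx8, Taf4b and Tbpl2. The genes were listed by symbol, with earlier results of these libraries known, and each matched 1 of the 55401 gene identifiers in the count files. The mothers were ICR mice that ate normal chow (normal diet, ND) or fat-rich chow (high-fat diet, HFD) for 4 months before mating with ND males. Female germ cells, labelled primordial germ cells and called fetal oocytes by the study, were sorted from the fetal ovary by the surface antigen SSEA-1, and their RNA was amplified by the SMART-Seq2 protocol, which was made for very little input. Each diet had 2 libraries, and the study's methods describe every library as a pool of oocytes from several fetuses. The labels give no altered genotype in either group.

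At this age mouse oocytes are finishing meiotic prophase I inside germ cell cysts, and around birth the cysts break up and each surviving oocyte is enclosed by pregranulosa cells as a primordial follicle. FIGLA, SOHLH1 and SOHLH2 are basic helix-loop-helix proteins, a family that binds short DNA elements named E-boxes. FIGLA is needed for primordial follicles to form and for expression of the zona pellucida genes, whereas SOHLH1 and SOHLH2 act early in the oocyte program and lie upstream of the homeobox genes. NOBOX and LHX8 are homeodomain proteins needed for the step from primordial to growing follicles. TAF4B is a gonad-enriched subunit of the general factor TFIID, and TBPL2 is a relative of the TATA-binding protein that takes its place in growing oocytes.

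The bases before the RefSeq start site (GRCm38.p6) are shown for Sohlh1, Figla and Nobox, the 3 members with the highest count in a single library, because FIGLA, SOHLH1 and SOHLH2 bind E-boxes and all 3 windows hold them. Capitals mark the letters CANNTG, the E-box, on either strand.
Sohlh1: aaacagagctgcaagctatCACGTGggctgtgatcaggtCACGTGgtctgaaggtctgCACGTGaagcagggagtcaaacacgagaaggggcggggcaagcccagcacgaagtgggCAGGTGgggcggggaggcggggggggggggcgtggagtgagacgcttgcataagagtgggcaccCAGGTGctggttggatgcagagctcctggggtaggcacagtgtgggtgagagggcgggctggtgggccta
Figla: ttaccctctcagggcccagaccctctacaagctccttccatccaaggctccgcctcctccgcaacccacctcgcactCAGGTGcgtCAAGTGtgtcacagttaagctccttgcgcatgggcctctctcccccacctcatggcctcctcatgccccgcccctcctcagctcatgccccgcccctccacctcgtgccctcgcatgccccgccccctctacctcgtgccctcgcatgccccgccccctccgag
Nobox: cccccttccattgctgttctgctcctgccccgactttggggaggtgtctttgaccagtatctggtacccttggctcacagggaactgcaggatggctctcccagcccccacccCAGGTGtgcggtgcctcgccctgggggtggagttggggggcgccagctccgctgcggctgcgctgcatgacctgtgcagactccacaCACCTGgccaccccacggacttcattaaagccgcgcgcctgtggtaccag

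The Sohlh1 window, at chr2:25847249-25847498 on the minus strand, holds 5 E-boxes. Of these, 3 read CACGTG and 2 read CAGGTG. Among 32817 windows of 250 bases before RefSeq starts, 66.2% held at least 1 E-box and 1.16% held 5 or more. At least 3 copies of CACGTG were present in 20 windows, or 0.0609%. The Figla window, at chr6:86016941-86017190 on the plus strand, holds 2 E-boxes, as does the Nobox window at chr6:43309555-43309804 on the minus strand, and 31.8% of all windows held 2 or more. GENCODE places the outer end of Figla further upstream, so that the Figla window lies within the annotated gene. In the corresponding windows of the other members, Tbpl2 had 4 E-boxes, Sohlh2 had 1 and Lhx8 had 0. The letters TAATTG or TAATTA, bound by NOBOX, the letters TGATTG, bound by LHX8, and the TATA box TATAAA, each searched on both strands, were in none of the 6 member windows searched and in 11.3%, 12.7% and 12.4% of all windows. GC content was 64.4% to 67.2% in the windows of Sohlh1, Sohlh2, Nobox and Figla, 52.8% for Tbpl2 and 46% for Lhx8. The median over all windows was 52.4%. Windows were not matched for GC content, and 6 are too few to show a lack of these letters. A match is a description of the letters and not of binding.

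The libraries held between 5723605 and 8223255 counted reads, and 3 reads corresponded to between 0.365 and 0.524 CPM (counts scaled to the library total). Replicates stood far apart over the whole transcriptome. Of 2219 protein-coding genes at 50 CPM or more in either HFD library, 78.9% differed by over 10-fold between the HFD libraries, and 76.6% of 1878 such genes did so in ND. Of 10 germ cell markers, 9 and 8 were above the background limit defined below in ND and 8 and 7 in HFD, and they summed to 2296 and 3870 CPM in ND and 4201 and 2477 CPM in HFD. In the fit 7 of them had a fold change above 0 and 3 below, and at an unadjusted p under 0.05 in edgeR 2 were higher in HFD (Sycp1 and Taf7l) and 1 was lower (Ddx4). Sycp1, a protein of the synaptonemal complex, had 36 and 48 counts in ND and 9038 and 7978 in HFD. Ddx4, the germ cell RNA helicase, had 49 and 97 counts in ND and 5 and 14 in HFD, under the limit in both HFD libraries, while Dazl, a germ cell RNA-binding protein, had 14247 and 29465 in ND and 2926 and 49 in HFD replicates 1 and 2. Pregranulosa markers summed to 31.0 and 414 CPM in ND and to 20.4 and 2084 CPM in HFD. Amhr2 with 6372 counts and Rspo1 with 5264 made up most of the last sum. Foxl2, which defines the lineage, had 14 to 34 counts in every library. In ND replicate 2 most of the sum was Fst, with 35 and 2990 counts in ND and 7 and 12 in HFD. Of the 10 pregranulosa markers, 7 had a fold change above 0 and 3 below. At an unadjusted p under 0.05 in edgeR, 0 were higher in HFD and 1, Fst, was lower. Stromal markers summed to 2843 and 69.0 CPM in ND and to 2222 and 7700 CPM in HFD. Of the 8 tested, 7 had a fold change above 0 and 1 below. Their median log2 fold change was 2.23, against 0.03 for all genes tested. With an unadjusted p under 0.05 in edgeR, 2 were higher in HFD and 1 was lower. Endothelial markers summed to 18.9 and 68.6 CPM in ND and to 698 and 28.1 CPM in HFD, and blood cell markers to 1973 CPM in ND replicate 1 and at most 11.5 CPM elsewhere. Macrophage markers summed to between 9.21 and 37.7 CPM. How far these markers and the gaps between replicates bear on the values below was not tested.

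The follicle factors split into a group of 4, Nobox, Figla, Sohlh1 and Lhx8, with high counts in at least 1 HFD library and low counts in both ND libraries, and a group of 3, Sohlh2, Taf4b and Tbpl2, with low counts throughout. Together the 7 genes held 129 and 210 counts in the ND libraries, against 14087 in HFD replicate 1 and 14671 in HFD replicate 2. In counts the sum was thus much alike in the HFD libraries. Dividing by the TMM factors that scale HFD replicates 1 and 2 in the fit, 0.692 and 1.51, set these libraries further apart. The composition of the sum differed between them. Nobox took 58.6% of it in HFD replicate 1 (95% Wilson interval 57.8% to 59.4%), and Sohlh1 took 75.0% in HFD replicate 2 (74.3% to 75.7%). Such intervals cover counting error only. In pooled cells, fewer oocytes with a given transcript and less of it per oocyte cannot be told apart.

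**Figure D1:**
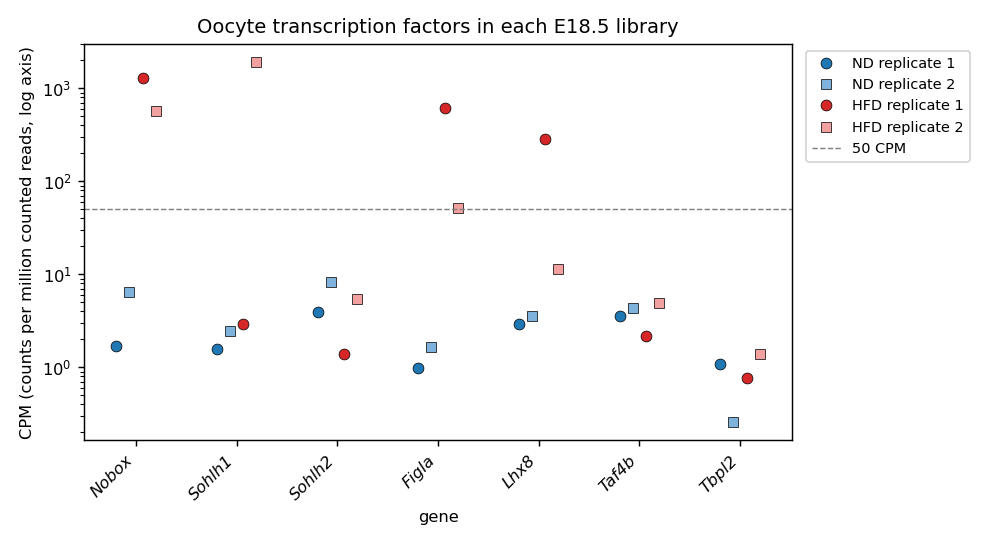
Level of each transcription factor in CPM on a log axis, with one point per library (blue for ND, red for HFD, circles for replicate 1 and squares for replicate 2) and a dashed line at 50 CPM. Nobox and Figla lie above the line in both HFD libraries, Sohlh1 in HFD replicate 2 alone and Lhx8 in HFD replicate 1 alone, and no ND point reaches it.

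Nobox (ENSMUSG00000029736, chromosome 6 from 43303674 to 43309554 on the minus strand of GRCm38) was the member with the steadiest difference. It had 14 and 50 counts in ND, against 8252 in HFD replicate 1 and 3246 in HFD replicate 2. The lower HFD level was 88.6 times the higher ND level, and the HFD libraries differed from each other by 2.25-fold. In CPM divided by the TMM factors of the fit, Nobox stood at 1.67 and 6.80 in ND and 1847 and 377 in HFD. The means were 4.05 ± 3.32 CPM in ND and 923 ± 503 CPM in HFD (SD, n = 2 each). In RPKM, which is CPM per kilobase of exon, Nobox was the gene of rank 81 in HFD replicate 1 and rank 200 in HFD replicate 2 among 21897 protein-coding genes. Its fitted log2 fold change was 8.02 with a standard error of 2.54 (edgeR quasi-likelihood, adjusted p = 0.406, unadjusted p = 0.0212). Nobox kept a log2 fold change between 6.36, without HFD replicate 1, and 9.36, without ND replicate 2.

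Lhx8 (ENSMUSG00000096225, chromosome 3 from 154306294 to 154330659 on the minus strand), a LIM-homeobox gene, had 24 and 28 counts in ND and 1845 and 65 in HFD. The gene was thus abundant in HFD replicate 1, at 286 CPM. In HFD replicate 2 it stood at 11.4 CPM, 3.17 times the higher ND level of 3.58 CPM in ND replicate 2. After TMM scaling, HFD replicate 2 was at 7.54 CPM and ND replicate 2 at 3.81 CPM. Means were 3.25 ± 0.470 CPM in ND and 149 ± 194 CPM in HFD (SD, n = 2 each). For Lhx8, the log2 fold change of 5.96 (standard error 2.27, adjusted p = 0.406 from edgeR) became 1.07 without HFD replicate 1.

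Figla (ENSMUSG00000030001, chromosome 6 from 86016171 to 86020996 on the plus strand) had 8 and 13 counts in ND and 3943 and 296 counts in HFD. Both HFD libraries lay above both ND libraries, the lower of them 31.1-fold above the higher ND library, although the HFD libraries were 11.8-fold apart. TMM-scaled CPM were 0.954 and 1.77 in ND and 883 and 34.3 in HFD. The means were 1.32 ± 0.488 CPM in ND and 331 ± 395 CPM in HFD (SD, n = 2 each). Figla had the largest fitted log2 fold change of the 6 members tested, 8.37 with a standard error of 2.51 (edgeR quasi-likelihood, adjusted p = 0.406, unadjusted p = 0.0162), which became 4.54 without HFD replicate 1.

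Sohlh1 (ENSMUSG00000059625, chromosome 2 from 25842995 to 25847248 on the minus strand) had 13 and 19 counts in ND, 19 in HFD replicate 1 and 10997 in HFD replicate 2. In the last library it stood at 1921 CPM and rank 22 among protein-coding genes by RPKM. HFD replicate 1, at 2.94 CPM, was 1.21 times the higher ND level in ND replicate 2, which also had 19 reads, so that this difference came from the library totals alone. The HFD libraries differed by 653-fold. The means were 2.01 ± 0.601 CPM in ND and 962 ± 1357 CPM in HFD (SD, n = 2 each). Its log2 fold change of 8.28 (standard error 3.15, adjusted p = 0.406 from edgeR) became 1.03 without HFD replicate 2.

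Sohlh2 (ENSMUSG00000027794, chromosome 3 from 55182028 to 55209957 on the plus strand), which encodes the partner of SOHLH1, did not share that pattern. It had 32 and 64 counts in ND and 9 and 31 in HFD. The groups overlapped in CPM, at 3.89 and 8.19 against 1.39 and 5.42, but not in CPM divided by the TMM factors of the fit, at 3.82 and 8.71 against 2.02 and 3.60. In HFD replicate 2, where Sohlh1 reached 10997 counts, Sohlh2 had 31. Sohlh2 was the member with the most counts in each ND library. The log2 fold change was -1.15 with a standard error of 0.62 (adjusted p = 0.447 from edgeR), and its leave-one-out values ran from -1.71 to -0.52.

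Taf4b (ENSMUSG00000054321, chromosome 18 from 14783245 to 14900359 on the plus strand) had 29 and 34 counts in ND and 14 and 28 in HFD. The groups overlapped in CPM, where HFD replicate 2 was highest at 4.89, but not in TMM-scaled CPM, at 3.46 and 4.63 against 3.13 and 3.25. The log2 fold change of Taf4b was -0.34 with a standard error of 0.37 (adjusted p = 0.762 from edgeR). Tbpl2 (ENSMUSG00000061809, chromosome 2 from 24071721 to 24096595 on the minus strand) had 9 and 2 counts in ND and 5 and 8 in HFD, and was the only member that did not pass the filter on low counts. Its level lay between 0.256 and 1.40 CPM, so that a difference between diets was not detectable at this depth.

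**Figure D2:**
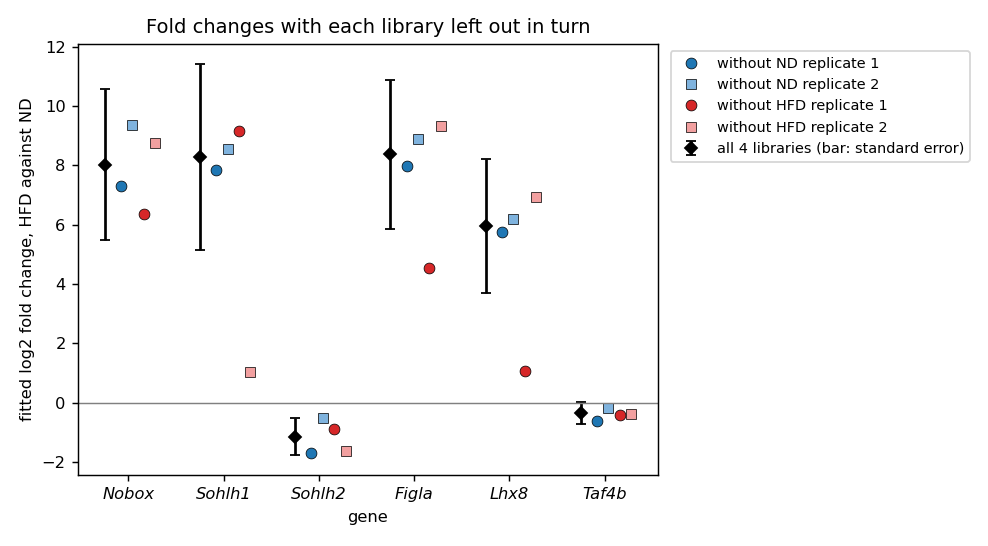
Fitted log2 fold change of HFD against ND for the 6 members that passed the filter, with all 4 libraries (black diamonds, bars for the standard error) and with each library left out (colored points). Lhx8 moves to 1.07 without HFD replicate 1 and Sohlh1 to 1.03 without HFD replicate 2, whereas Nobox stays above 6 in every case.

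To see which of these low counts exceed stray reads, the members were set against 1093 olfactory receptor genes, which belong to the olfactory epithelium. Of these genes, 80.0% to 96.1% had at least 1 read in a library. The limit in each library was the 99th percentile of their reads per kilobase of exon, between 7.36 and 12.5, with more than 3 counts required. Taf4b and Tbpl2 were under this limit in all 4 libraries. Taf4b, with 5149 bases of exon, reached 0.369 to 0.734 times the limit and Tbpl2 0.161 to 0.769 times. Sohlh2 was 1.59 and 3.01 times the limit in ND, 0.517 times in HFD replicate 1 and 1.05 times in HFD replicate 2. The other 4 members were between 0.819 and 2.76 times the limit in ND. Nobox was 557 and 129 times the limit in HFD replicates 1 and 2, Figla 641 and 28.4 times, Lhx8 99 and 2.06 times, and Sohlh1 2.003 and 683 times. Members above the limit numbered 4 and 5 in ND and 4 and 5 in HFD, so that the libraries differed in how high the members stood more than in how many passed.

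**Figure D3:**
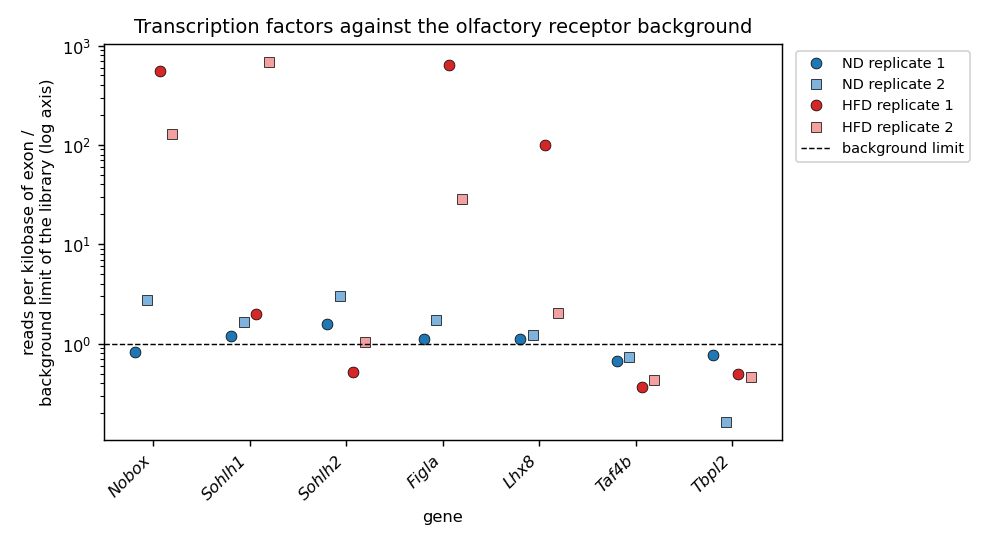
Reads per kilobase of exon of each transcription factor divided by the background limit of the same library, on a log axis, with the limit as a dashed line and one point per library. Taf4b and Tbpl2 lie under the line in every library, and the ND points of the other genes lie within 3.01 times the limit.

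Over all genes, 0 of 19335 passed as higher in HFD in edgeR's quasi-likelihood test (adjusted p under 0.05, fold over 1.5), or 0%, and 0 of the 6 members tested were called. An unadjusted p under 0.05 in edgeR was given to 2171 of the 19335 genes, 932 of them higher in HFD. At that level, 4 of the 6 members were higher in HFD (Figla, Nobox, Sohlh1 and Lhx8) and 0 were lower, against 4.82% of all genes tested that were higher. That count became 0 without ND replicate 1 and 0 without ND replicate 2. Run on all genes, DESeq2 called the same 4 members, with adjusted p of 3.81e-07 for Nobox, 1.84e-06 for Figla, 3.21e-05 for Sohlh1 and 0.000773 for Lhx8. In that fit 24.3% of the 5601 genes given an adjusted p were called higher. Sohlh2, Taf4b and Tbpl2 were given no adjusted p there, so only the 4 members named could be called. Those 4 had their high counts in HFD libraries alone. Both HFD levels in CPM lay above both ND levels for the same 4 of 6 members, a pattern found in 13.9% of all genes tested, and both lay below for 0 members, against 13.4%. For Sohlh1 this rests on equal counts of 19 in a library of each diet. In TMM-scaled CPM, a scaling added after the data were seen, both HFD levels lay above for 4 members, against 16.1% of genes, and below for 2 (Sohlh2 and Taf4b), against 17.8%. The members were listed with earlier results of these libraries known, so these counts are no independent evidence of a direction. With 2 libraries against 2, an exact permutation test cannot give a p under 0.333.

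The way in which the 4 abundant members were spread over the HFD libraries was compared with other genes. Of 3359 protein-coding genes at 50 CPM or more in any library, 118 or 3.51% reached this level in both HFD libraries and neither ND library, as Nobox and Figla did. Figla was just inside it, at 51.7 CPM in HFD replicate 2, or 34.3 in TMM-scaled CPM. The pattern of Lhx8, HFD replicate 1 alone, was that of 976 genes, or 29.1%, and the pattern of Sohlh1, HFD replicate 2 alone, that of 387 genes, or 11.5%. For comparison, 717 genes reached the level in ND replicate 1 alone, 298 in ND replicate 2 alone, 125 in both ND libraries only and 98 in all 4 libraries.

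**Figure D4:**
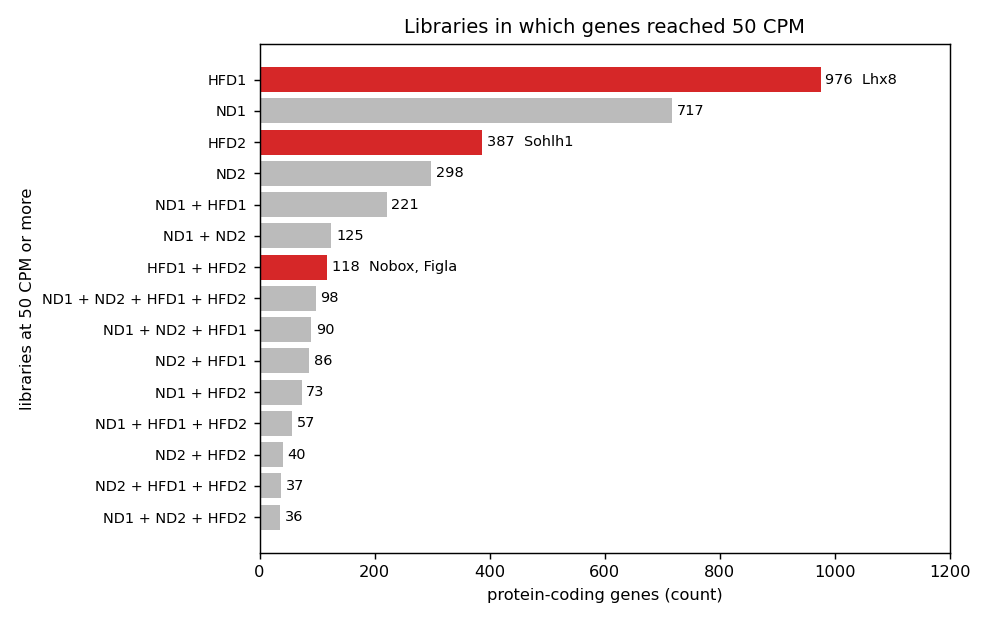
Number of protein-coding genes for each combination of libraries in which a gene reached 50 CPM or more (ND1 is ND replicate 1, and so on), with the combinations that hold a follicle factor in red. Nobox and Figla fall in a combination of 118 genes, Sohlh1 in one of 387 and Lhx8 in the largest one, of 976.

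The genes whose levels were most like those of each abundant member were found by Euclidean distance over log2(CPM + 1) of the 4 libraries. For Nobox the nearest was Taf7l, a germ cell relative of a TFIID subunit that is also on the germ cell marker list, at a distance of 0.91, with 17 and 53 counts in ND and 5994 and 5517 in HFD. Next came Atg14, an autophagy factor, at 1.12 and Pebp1, a kinase inhibitor, at 1.15. For Sohlh1 the nearest were Fntb at 0.57, Paf1 at 0.70 and Wwtr1 at 0.75, each with 8421 to 9833 counts in HFD replicate 2 and at most 28 elsewhere. For Figla they were Atxn7l3b at 1.39, Leo1 at 1.73 and Ezh1 at 1.77. For Lhx8 they were Fxr2 at 0.35, Nub1 at 0.49 and Mob1a at 0.52. The number of protein-coding genes within a distance of 2 was 8 for Figla, 15 for Nobox, 86 for Sohlh1 and 405 for Lhx8. These distances describe 4 libraries and are no test.

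None of the neighbours given here had the pattern of its own abundant member, Nobox, Figla, Sohlh1 or Lhx8, across the libraries. Those of Sohlh2, Taf4b and Tbpl2 had low counts throughout, as these members did. Nearest protein-coding genes were examined for each member, and no exon of a member was shared with another annotated gene. Near Nobox, Arhgef5 lies 14354 bases away and had 49 and 55 counts in ND and 2889 and 28 in HFD. It was thus abundant in 1 HFD library, while Nobox was abundant in both. Next to Figla, Dusp11 had 7556 counts in ND replicate 1 and 14 to 36 elsewhere, and Add2 had 34 to 81 counts. At the other members 10 neighbours, Lcn9 and Kcnt1 at Sohlh1, Ccdc169 and Dclk1 at Sohlh2, Slc44a5 and Tyw3 at Lhx8, Psma8 and Kctd1 at Taf4b, and Hnmt and Il1f8 at Tbpl2, had at most 84 counts in any library.

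Partners of the factors were listed as 13 genes, namely the E proteins that pair with FIGLA, the TATA-binding protein and its relatives, TFIID and TFIIA subunits, and Stat3, Dynap and Sub1. Of these, 11 were tested, 5 with a fold change above 0 and 6 below, and 0 passed at an unadjusted p under 0.05 in either direction. Their median log2 fold change was -0.12, against 0.03 for all genes tested. Sub1, a transcriptional coactivator, had 894 and 11562 counts in ND and 13920 and 153 in HFD, so that the groups overlapped. Tcf12, an E protein, had 127 and 108 counts in ND and 423 and 215 in HFD. In CPM it stood at 15.4 and 13.8 against 65.5 and 37.6 (adjusted p = 0.469 from edgeR). It was under the background limit in both ND libraries. Both HFD levels in CPM lay above both ND levels for Tcf12, Tcf3 and Taf12, a pattern of 13.9% of all genes tested. In TMM-scaled CPM the groups overlapped for Tcf3. For Tbp both lay below, a pattern of 13.4%. Taf12 and Tbp were under the background limit in all 4 libraries. Tcf3, Taf12 and Tbp were named after their values were seen. Tcf4, another E protein, had 4604 counts in ND replicate 1, 909 in HFD replicate 2 and at most 167 elsewhere. Gtf2a2, the small TFIIA subunit, had 41 and 277 counts in ND and 96 and 23 in HFD.

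Downstream oocyte genes were listed as 20 symbols that need one or more of the factors or follow them, of which 19 were found and 18 tested. Of these, 9 had a fold change above 0 and 9 below, with a median log2 fold change of 0.09, against 0.03 for all genes. Zp2 was the only one with an unadjusted p under 0.05, and 0 were called by edgeR. Zp2, a zona pellucida protein, had 23 and 17 counts in ND and 1004 and 75 in HFD. Its log2 fold change was 5.51 with a standard error of 1.90 (edgeR quasi-likelihood, adjusted p = 0.406, unadjusted p = 0.0282). Zp3, also a zona protein, had 18 and 47 counts in ND and 4594 and 83 in HFD, at a log2 fold change of 6.91 with a standard error of 2.80 (adjusted p = 0.406 from edgeR). HFD replicate 1 was the high library for Zp2 and Zp3, as for Figla and Lhx8. Zp2 and Zp3 reached 50 CPM in that library alone, as did 29.1% of the protein-coding genes at 50 CPM in any library. Zp1, the other zona gene on the list and named after its values were seen, had 31 and 21 counts in ND and 30 and 50 in HFD, at a log2 fold change of 0.93 with a standard error of 0.40 (adjusted p = 0.406 from edgeR), and was highest in HFD replicate 2. Gdf9, an oocyte growth factor, had 163 and 415 counts in ND and 3507 and 175 in HFD, and Kit, the receptor for KIT ligand, had 876 and 70 in ND and 3111 and 257 in HFD. In both genes the groups overlapped. Kdm1b, a histone demethylase needed for imprints in oocytes, followed the other library, with 60 and 43 counts in ND, 21 in HFD replicate 1 and 9236 in HFD replicate 2. Over all genes, DESeq2 called 2539 of the 5601 given an adjusted p, 1360 of them higher. In that fit 3 of the downstream genes were called higher (Zp2, Zp3 and Kdm1b) and 1 lower. The last, Npm2, named after its values were seen, had 19 and 575 counts in ND and 2 and 50 in HFD. The 9 genes with a fold change below 0 were Npm2, Oosp1, Rfpl4, Bmp15, Oog3, H1foo, Mos, Pou5f1 and Zar1. All of these but Pou5f1 and Zar1 were highest in ND replicate 2, with H1foo at 82.8 CPM. They too were named after their values were seen.

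**Figure D5:**
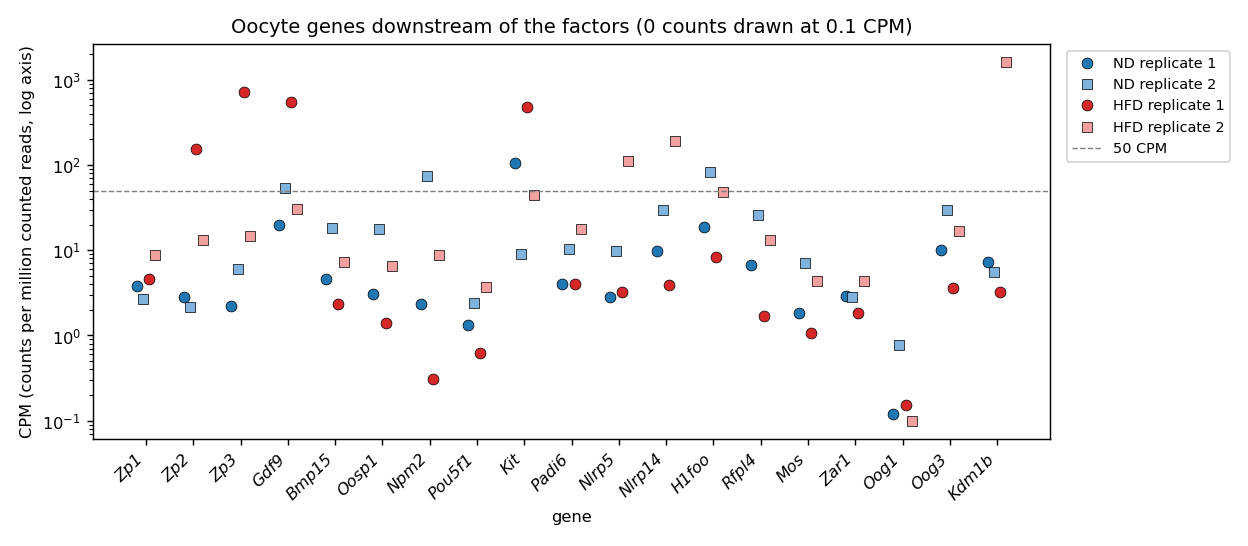
Level in CPM, on a log axis, of the 19 oocyte genes of the downstream list in each library (blue for ND, red for HFD, circles for replicate 1 and squares for replicate 2), with a dashed line at 50 CPM. Zp2, Zp3, Gdf9 and Kit are highest in HFD replicate 1 and Kdm1b is highest in HFD replicate 2. Npm2, Oosp1, Rfpl4, Bmp15, Oog3, H1foo, Mos and Oog1 are highest in ND replicate 2.

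Other germ cell regulators were listed as 10 genes, of which 9 were found and tested, 3 with a fold change above 0 and 6 below and a median log2 fold change of -0.13. At an unadjusted p under 0.05, 1 was higher and 1 lower, against 2171 of all 19335 genes in either direction, 932 of them higher. By edgeR 0 were called. DESeq2 called Ybx2 higher, as it did 24.3% of all genes given an adjusted p. Ybx2, an RNA-binding protein that stores maternal transcripts, had 19 and 23 counts in ND and 355 and 3131 in HFD (log2 fold change 6.36, standard error 1.74, adjusted p = 0.406 from edgeR). As with Nobox and Figla, both of its HFD levels exceeded 50 CPM, at 55.0 and 547 CPM. Ddx4 was the lower one, at a log2 fold change of -2.77 with a standard error of 0.62 (adjusted p = 0.406 from edgeR). Foxo3, which holds primordial follicles dormant, had 934 and 71 counts in ND and 33 and 8405 in HFD. Cpeb1, a translational regulator, had 7433 and 38 counts in ND and 17 and 10337 in HFD. Stra8, which marks entry into meiosis, had 38 and 4972 counts in ND and 8 and 3799 in HFD. For Foxo3, Cpeb1 and Stra8 the groups overlapped, with the high library differing between replicates of a diet.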

How the data were processed

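There were 2 ND and 2 HFD libraries of E18.5 oocyte RNA. The authors deposited raw counts per gene from featureCounts, made after trimming (Trim Galore) and HISAT2 alignment against mm10. Their annotation release, strand setting and treatment of multi-mapping reads are not given in the sources used here. Identifiers without version were matched to GENCODE M21 (GRCm38), which lacked 260 of 55401. CPM used library totals. The TMM factors used in the fit were 1.02, 0.941, 0.692 and 1.51 for ND replicates 1 and 2 and HFD replicates 1 and 2. Diets were compared over 19335 genes kept by filterByExpr with edgeR 4.0.16 (R 4.3.3, quasi-likelihood fit with legacy FALSE) and Benjamini-Hochberg adjustment over all of them. Each standard error was taken as the absolute log2 fold change divided by root F. Alternatives used RLE or library-size scaling, other filters, DESeq2 1.42.0, limma-voom 3.58.1, edgeR's legacy fit, a replicate block and leaving out each library. The test functions were run on simulated counts whose spread was set in advance and not taken from these libraries. That run therefore does not measure their error here. The members and gene lists were chosen with earlier results of these data known. Named list genes had an unadjusted p under 0.05 or were among the 4 with the highest CPM of their list. Of the marker lists only sums, some counts by direction and a few of these genes are given, and Foxl2 was added after its values were seen. Also named were the 3 most similar genes of each member at 50 CPM or more and the nearest protein-coding gene on each side. A gene that this rule names is not reported here. Replicates are separate samples per the labels, which give no litter or sorting day, so p-values measure only the spread between these libraries. Promoter windows are from RefSeq, and 6 of 7 members matched.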

Additional observations from a re-analysis of the deposited data

How the results depend on the processing

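The 6 members fitted in the main analysis kept the sign of their log2 fold change under every alternative in which they could be fitted, and Tbpl2, fitted without a filter, with DESeq2 on all genes and without HFD replicate 1, stayed above 0. Relative to 0 calls with edgeR, DESeq2 called 2539 genes on all genes and 2102 on the filterByExpr genes, and edgeR's legacy fit called 34. DESeq2 called 4 members with either set of genes, and the legacy fit, limma-voom, the other scalings and the other filters called 0. Of the 4 members with an unadjusted p under 0.05, limma-voom left 1, a minimum of 10 counts in every library, which drops Figla, left 3 and the legacy fit 0. With a replicate block in edgeR there was 1, Sohlh2, which was lower in HFD (unadjusted p = 0.0369, adjusted p = 0.646 from edgeR), and 0 genes were called. Deviations of the same-numbered libraries from the group means correlated at 0.0112. With 2 libraries a diet both pairs give the same value, so it cannot show whether they share a litter or sorting day. Each leave-one-out fit had only 1 library of a diet, so its p-values rest on the spread within the other diet. The log2 fold change of Lhx8 became 1.067 without HFD replicate 1, and that of Sohlh1 1.035 without HFD replicate 2. For Figla and Nobox the lowest leave-one-out values were 4.536 and 6.363, both without HFD replicate 1. In TMM-scaled CPM, chosen after seeing the data, both HFD levels lay below both ND levels for 2 members (Sohlh2 and Taf4b) in place of 0. Scaling by library size alone moved the median log2 fold change of all genes from 0.03 to 0.21. At 20 CPM the number of members present was the same in each library, and at 100 CPM it became 2 in HFD replicate 2, without Figla. With the 95th percentile as background limit, 4 to 6 members passed per library. At about 10 reads per gene, as for Tbpl2, the depth limits any comparison.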
